A study of Homo sapiens with 4 samples.

Results

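The genes described here are 9 genes of the interferon response and of double-stranded RNA sensing: IFIT1, IFIT2, IFIT3, ISG15, MX1, OAS1, IFI6, DDX58 and IFIH1. They were chosen by symbol, and each of the 9 has its own row in the deposited table, which holds 26364 gene symbols. The table gives read counts for 4 RNA libraries of SW480 and SW620, a pair of established human colorectal cancer cell lines, so that each line contributed 1 library of SHMT2-knockdown and 1 of control cells. SHMT2 is the mitochondrial serine hydroxymethyltransferase, an enzyme of one-carbon metabolism. In the knockdown system of the study, lentivirally transduced cells selected with puromycin express an shRNA against SHMT2 when doxycycline is added. The controls are described in the paper as cells with a control shRNA and in the sample labels only as control. Whether they received doxycycline, and whether a library comes from 1 clone or from a mixed population, is not given in the sources used here. Thus there was no replicate within a line, and knockdown and control were tested over both lines together.

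Cells detect RNA of viruses, or their own RNA when it is double-stranded, through cytosolic helicases. DDX58 encodes RIG-I and IFIH1 encodes MDA5, and both signal through the mitochondrial protein MAVS to switch on interferon genes. Secreted interferon then acts through its receptors, JAK kinases and a complex that holds STAT2 and IRF9, which binds an interferon-stimulated response element in front of many genes. The products of these genes block viruses. IFIT proteins bind RNA that lacks host modifications, OAS1 makes short oligoadenylates that act as a messenger, MX1 is a GTPase that traps viral particles, ISG15 is a ubiquitin-like modifier and IFI6 is a small membrane protein. The sensors are themselves induced by interferon. UHRF1 keeps DNA methylation in place through replication, and loss of that methylation is known to allow transcription of repeats, whose double-stranded RNA these sensors can bind. Repeats as such were not measured here, as the table counts reads by gene symbol.

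The genes are spread over 6 chromosomes. In GENCODE 29 on GRCh38, which is not the authors' build, IFIT2 (chr10:89283694-89309276), IFIT3 (chr10:89327894-89340971) and IFIT1 (chr10:89392546-89406486) lie next to each other on the plus strand. ISG15 (chr1:1001138-1014540, plus strand) and IFI6 (chr1:27666061-27672218, minus strand) share chromosome 1. MX1 (chr21:41420304-41459214) and OAS1 (chr12:112906777-112933222) are on the plus strand. DDX58 (chr9:32455705-32526324) and IFIH1 (chr2:162267079-162318703) are on the minus strand.

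Promoter windows from 250 bases before to 50 bases after the start site were read from RefSeq on GRCh38.p14, and 8 of the 9 genes matched a window, with DDX58 listed under its newer symbol RIGI. The searched motif was 2 copies of GAAA separated by any 2 bases, on either strand, the core of the interferon-stimulated response element. It was found in 6 of the 8 (75%), namely IFIT1, IFIT3, ISG15, MX1, IFI6 and IFIH1, and in 4.38% of the 27305 genes with a window. The share was like that in other interferon-stimulated genes with a window (27 of 37, 73%) and in antigen presentation genes induced by interferon (10 of 13, 76.9%). A window of OAS1 or DDX58 held no match to these letters. A match is only a match of letters. For the 4 genes with a match before the start site and outside annotated exons, the nearest such match to the start site is shown. Each stretch has 30 bases, 5′ to 3′ on the strand of the gene, with that match in capitals. In the stretch of ISG15, another match begins in the lower-case letters and overlaps the one in capitals.
IFIT1 (chr10:89392510-89392539, plus strand, motif on the opposite strand): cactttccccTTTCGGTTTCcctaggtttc
IFIT3 (chr10:89332425-89332454, plus strand, motif on the opposite strand): acagattctgTTTCAGTTTCccctcaagag
ISG15 (chr1:1013380-1013409, plus strand): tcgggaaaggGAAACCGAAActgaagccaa
IFI6 (chr1:27672266-27672295, minus strand): gcagagtgcaGAAATAGAAActccgacagg
The first base of the motif lay 103 bases before the start site in IFIT1, 94 in IFIT3, 107 in ISG15 and 93 in IFI6. The windows of IFIT1 and IFIT3 also lie within LIPA, and that of IFI6 within AL445490.1, each a gene of the opposite strand.

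Library totals ranged from 5530129 counts in control SW620 to 13774288 in SHMT2-knockdown SW620, with 9590550 in control SW480 and 6432779 in SHMT2-knockdown SW480. Knockdown and control thus differed in depth, by a factor of 0.671 in SW480 and of 2.49 in SW620. Levels are therefore given as CPM, each count per 1e+06 counts of the library after TMM scaling. SHMT2 fell from 277 to 30.9 CPM in SW480 and from 688 to 47.6 CPM in SW620, and UHRF1 fell from 230 to 69.4 and from 234 to 67.9 CPM. In both lines together, edgeR's quasi-likelihood test gave a log2 fold change of -3.54 (SE 0.12, adjusted p = 1.06e-167) for SHMT2 and -1.76 (SE 0.12, adjusted p = 3.80e-43) for UHRF1. Of 12 markers of colorectal epithelial cells, 8 could be tested. EPCAM, KRT8, KRT18 and KRT19 ranged from 260 to 5235 CPM, whereas VIL1 had 2 and 1 counts in the SW480 libraries and KRT20 had at most 15 counts in a library. CDX1 had 0 counts in every library, LGALS4 had at most 8 and GPA33 at most 5. CDH17 had 1 and 0 counts in SW480 and 13 and 25 in SW620. By edgeR's quasi-likelihood test over both lines, KRT8 and KRT18 were lower in the knockdown (log2 fold changes of -0.34 each, adjusted p of 0.00406 and 0.00537) and CDH1 was higher (0.45, adjusted p = 0.0210). Summed over their lists, leukocyte markers reached 5.28 to 15.5 CPM, fibroblast markers 20.4 to 30.4 CPM and endothelial markers 0.733 to 2.41 CPM, against 5400 to 10500 CPM for the epithelial list. The epithelial sum was 7010 CPM in control and 5400 CPM in SHMT2-knockdown SW480, and 10500 and 9520 CPM in SW620, and its part in the values of the 9 genes was not tested. The leukocyte sum was lower in SHMT2-knockdown SW480 (8.14 CPM) than in its control (15.5 CPM). PTPRC, the pan-leukocyte marker, had 0 counts in both SW480 libraries and 2 in each SW620 library.

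Among the effector genes, the IFIT family was examined first. IFIT1 had 61 counts in control SW480, 93 in SHMT2-knockdown SW480, 25 in control SW620 and 37 in SHMT2-knockdown SW620, or 6.35, 14.0, 4.58 and 2.75 CPM. The knockdown library was the higher of the pair in SW480 (2.21-fold, 95% interval 1.58 to 3.10) and the lower of the pair in SW620 (0.600-fold, 0.352 to 1.04). These intervals, and those that follow, are exact conditional binomial intervals for the ratio of 2 counts and cover counting error only. In bulk RNA, a larger share of expressing cells and more RNA per cell cannot be told apart.

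IFIT2 had 33 and 51 counts in control and SHMT2-knockdown SW480 and 8 and 15 in the SW620 libraries, or 3.44, 7.69, 1.47 and 1.12 CPM. Its ratio of knockdown to control was 2.24 (1.42 to 3.58) in SW480 and 0.760 (0.303 to 2.07) in SW620. IFIT3 had 19, 30, 12 and 38 counts in the same order, or 1.98, 4.52, 2.20 and 2.82 CPM. Its ratio was 2.29 (1.25 to 4.30) in SW480 and 1.28 (0.657 to 2.70) in SW620. The 3 neighbouring IFIT genes thus had close ratios in SW480, while in SW620 each interval included 1. LIPA overlaps the 3 genes on the opposite strand, and the use of strand in counting is not stated, so reads of both strands cannot be told apart. LIPA had 384, 347, 418 and 1124 counts, with log2 ratios of 0.39 in SW480 and 0.12 in SW620, and its part in the IFIT counts was not tested.

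ISG15 was the most abundant of the 9 genes, with 716 and 597 counts in control and SHMT2-knockdown SW480 and 218 and 557 in the SW620 libraries. Its level was 74.5 and 90.0 CPM in SW480 and 40.0 and 41.4 CPM in SW620. The ratio of knockdown to control was 1.21 (1.08 to 1.35) in SW480 and 1.04 (0.884 to 1.22) in SW620, the narrowest intervals of the set. Both ratios were below 1.5-fold.

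IFI6 had 140 and 235 counts in control and SHMT2-knockdown SW480, or 14.6 and 35.4 CPM, and 52 and 86 counts in the SW620 libraries, or 9.53 and 6.39 CPM. It was 2.43-fold higher in the knockdown library of SW480 (1.96 to 3.02) and 0.671 times the control in SW620 (0.470 to 0.965). IFI6 was the only member whose counting intervals excluded 1 in opposite directions in the 2 lines. Of all genes tested, 14% had an interval above 1 in SW480 and 12.2% had one below 1 in SW620. The share with both was not counted.

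OAS1 had 10 and 20 counts in control and SHMT2-knockdown SW480 and 22 and 56 in the SW620 libraries, or 1.04, 3.02, 4.03 and 4.16 CPM. The ratio was 2.90 in SW480, with a wide interval of 1.29 to 6.93, and 1.03 (0.620 to 1.78) in SW620. MX1 was close to the lowest level that these depths can show in SW480, where control cells had 7 counts and knockdown cells 3, while the SW620 libraries had 18 and 36. These are 0.729, 0.452, 3.30 and 2.68 CPM. The ratio for MX1 was 0.621 (0.104 to 2.72) in SW480 and 0.811 (0.449 to 1.52) in SW620, so no difference in either direction was detectable at this depth. MX1 and OAS1 were the members with more CPM in SW620 than in SW480 under both conditions. Antisense genes overlap ISG15, MX1, OAS1 and IFI6 in GENCODE 29, and AL353751.1 overlaps IFIT2 on the same strand.

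In SW480, the sensors had ratios of smaller value than the IFIT genes, but their counting intervals overlapped with those of the IFIT genes. DDX58 had 147 and 174 counts in control and SHMT2-knockdown SW480, or 15.3 and 26.2 CPM, and 36 and 91 counts in the SW620 libraries, or 6.60 and 6.76 CPM. Its ratio was 1.71 (1.37 to 2.15) in SW480 and 1.02 (0.690 to 1.55) in SW620. IFIH1 had 159, 141, 55 and 155 counts, or 16.6, 21.3, 10.1 and 11.5 CPM. For IFIH1 the ratio was 1.28 (1.02 to 1.62) in SW480 and 1.14 (0.835 to 1.58) in SW620.

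**Figure D1:**
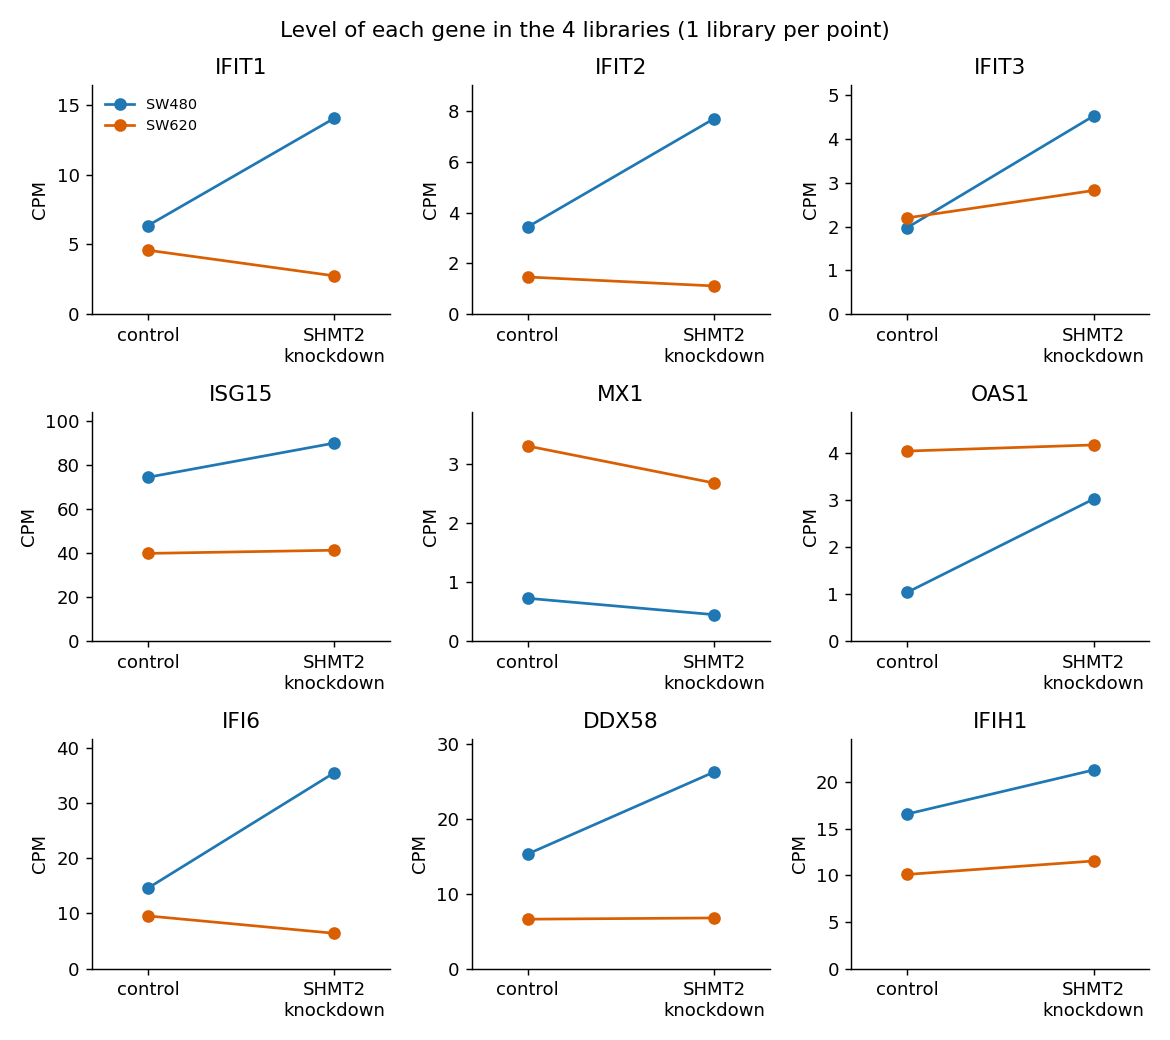
CPM of each of the 9 genes in control and SHMT2-knockdown cells, with 1 point per library and lines joining the libraries of SW480 (blue) and SW620 (orange); each panel has its own vertical axis, starting at 0. In SW480 the knockdown point is the higher one for every gene except MX1, while in SW620 those of IFIT1, IFIT2, MX1 and IFI6 lie below their controls.

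**Figure D2:**
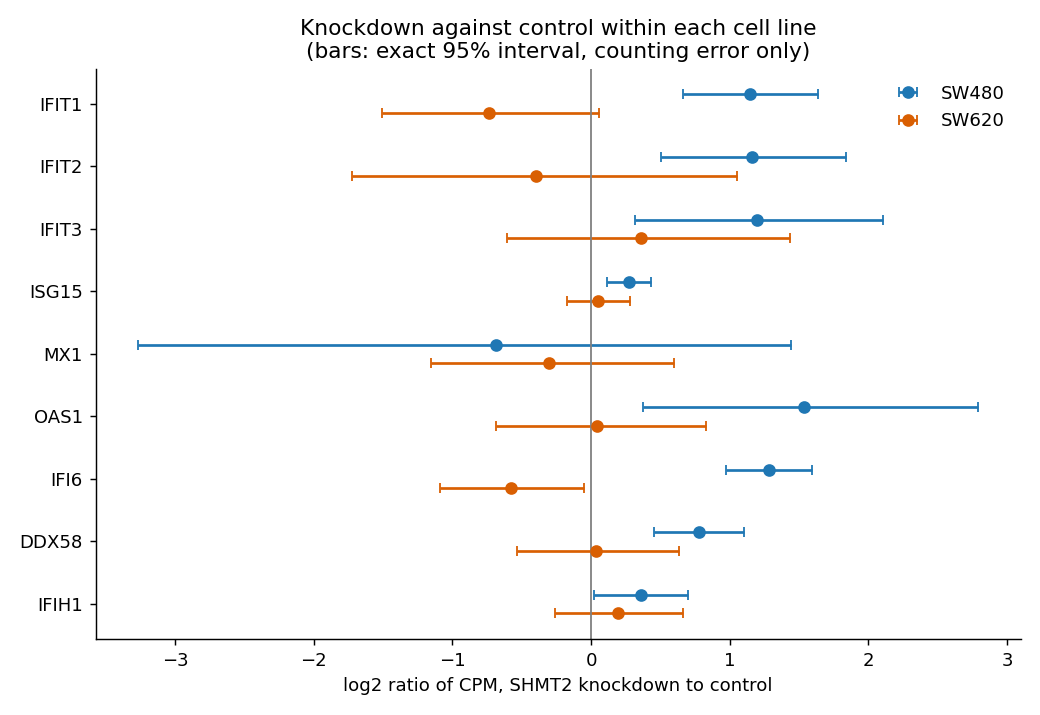
Log2 ratio of CPM, SHMT2 knockdown to control, for each gene within SW480 (blue) and SW620 (orange), with exact 95% intervals that cover counting error only. In SW480, 8 of 9 intervals lie above 0, and in SW620 none does and that of IFI6 lies below 0.

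Most of the 9 genes had a higher level in the knockdown library of SW480, and in SW620 their ratios lay on both sides of 1. The limits of 1.5-fold and of an interval above 1 were chosen after the values had been seen, and they compare 1 library with 1. For limits of 1.5-fold and for medians, a prior count of 2 was added. In SW480, 6 of 9 genes (IFIT1, IFIT2, IFIT3, OAS1, IFI6 and DDX58) were at least 1.5-fold higher in the knockdown library, against 5.57% of all 14024 genes tested. In SW620, 0 of 9 were, against 5.53%, and 1 of 9 (IFIT1) was at least 1.5-fold lower, against 4.73%. The interval lay above 1 for 8 of 9 genes in SW480, against 14% of all genes, and for 0 of 9 in SW620, against 13.4%. It lay below 1 for 1 of 9 in SW620 (IFI6), against 12.2%. The median log2 ratio of the 9 genes was 1.10 in SW480 and 0.03 in SW620, and over all genes it was 0.00 in both.

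Summed over the 9 genes, the level was 135 CPM in control SW480, 203 CPM in SHMT2-knockdown SW480, 81.8 CPM in control SW620 and 79.6 CPM in SHMT2-knockdown SW620. The ratio of knockdown to control was 1.51 (1.40 to 1.63) in SW480 and 0.974 (0.871 to 1.09) in SW620. Without ISG15, the most abundant of them, it was 1.88 (1.68 to 2.10) and 0.914 (0.781 to 1.07). After thinning all libraries to an equal total, 6 of the 9 genes in SW480 and 0 in SW620 passed 1.5-fold, and the median in SW480 was 0.80. Which genes these were, and the share of all genes past 1.5-fold after thinning, were not recorded. The difference between the lines was not tested, as there is 1 library per line and condition.

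**Figure D3:**
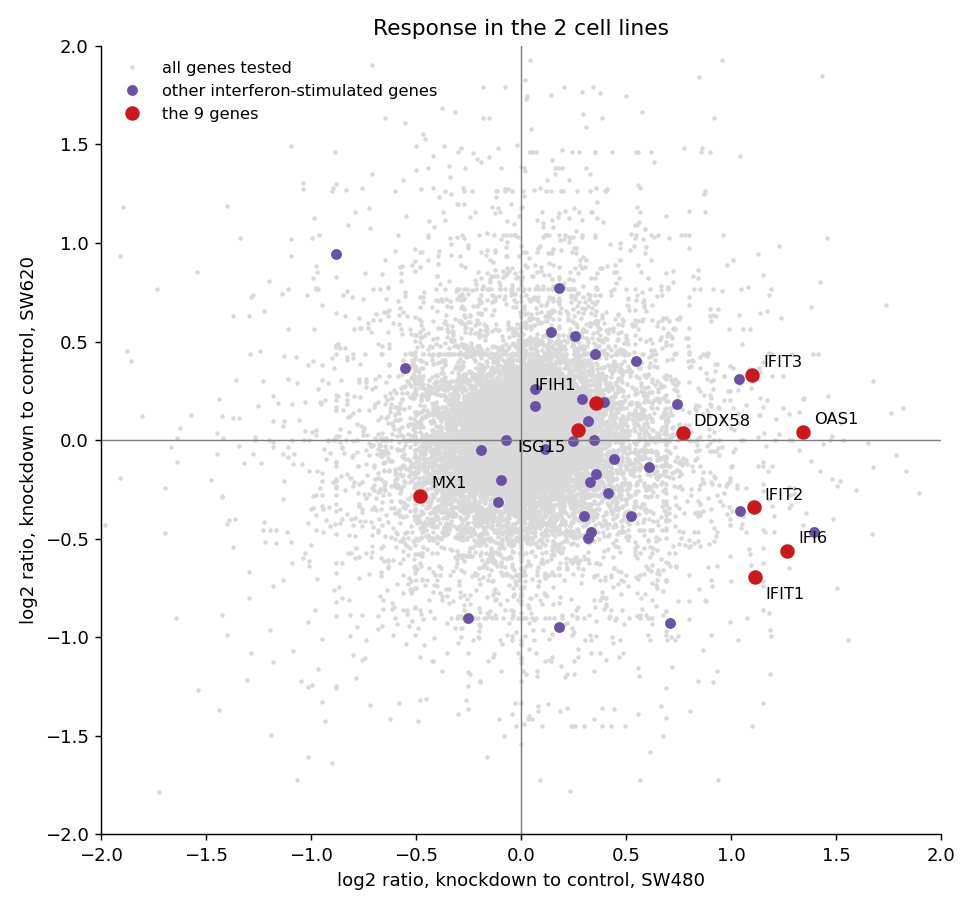
Log2 ratio of knockdown to control in SW480 (horizontal) against that in SW620 (vertical), with a prior count of 2, for the 9 genes (red), 35 other interferon-stimulated genes (purple) and all genes tested (grey); 33 genes lie outside the axes. The 6 genes past 1.5-fold in SW480 are at the right, from 0.33 to -0.69 on the vertical axis.

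Tested over both lines in a model that includes the cell line, 0 of 9 genes passed an adjusted p of 0.05 by edgeR's quasi-likelihood test. Of all 14024 genes, 1.66% passed, and 0.492% passed as higher in the knockdown. At an unadjusted p of 0.05 or less there were 2 of 9 genes, IFI6 and DDX58, both higher, against 4.15% of all genes in that direction, and 0 of 9 by DESeq2's Wald test. The log2 fold change was 0.57 (SE 0.22, adjusted p = 0.243 by edgeR) for IFI6 and 0.50 (SE 0.23, adjusted p = 0.452) for DDX58. Both values average unlike lines. IFI6 was 2.43 times its control in SW480 and 0.671 times in SW620, and DDX58 was 1.71 and 1.02 times. The IFIT genes had larger errors, with values of 0.45 (SE 0.31) for IFIT1, 0.75 (SE 0.43) for IFIT2 and 0.82 (SE 0.44) for IFIT3, with adjusted p values of 0.779, 0.645 and 0.589. For OAS1 it was 0.60 (SE 0.43), for IFIH1 0.29 (SE 0.22), for ISG15 0.17 (SE 0.13) and for MX1 -0.38 (SE 0.54). The median over the 9 genes was 0.50, against 0.01 over all genes. The model leaves 1 residual degree of freedom per gene, so the errors rest on a dispersion shared across genes.

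The level of these genes also differed between the lines. By the same model, 8 of 9 genes passed an adjusted p of 0.05 for SW620 against SW480, against 63.6% of all genes. IFIT1, IFIT2, ISG15, IFI6, DDX58 and IFIH1 (6 of 9) were lower in SW620, a direction taken by 31.3% of all genes, and MX1 and OAS1 (2 of 9) were higher, as were 32.3% of all genes. The log2 fold change was largest in size for MX1, at 2.30 (adjusted p = 0.000246 by edgeR), and for IFIT2, at -2.23. It was -1.56 for IFIT1, -1.02 for ISG15, -1.68 for IFI6, -1.65 for DDX58, -0.81 for IFIH1 and 1.04 for OAS1. For IFIT3 it was -0.38, with an adjusted p of 0.449 by edgeR. DESeq2's Wald test called 3 of 9 genes, ISG15, IFI6 and DDX58, in this comparison, against 5506 of all 14024 genes.

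These values average over treatments, and the ratio of SW480 to SW620 was therefore also taken within each treatment. IFIT1 was 1.39 times as high in control SW480 as in control SW620 (0.857 to 2.30) and 5.10 times as high between the knockdown libraries (3.45 to 7.68). For IFI6 the ratios were 1.53 (1.10 to 2.14) and 5.54 (4.31 to 7.18). The intervals of the control and knockdown libraries were separate for IFIT1 and IFI6 and overlapped for the other 7 genes. The share of all genes with separate intervals was not counted, so this cannot be called a trait of these genes. IFIT2 had ratios of 2.34 (1.06 to 5.87) and 6.90 (3.82 to 13.2). For ISG15 the ratio was 1.87 (1.60 to 2.18) and 2.17 (1.93 to 2.45), and for IFIH1 it was 1.64 (1.20 to 2.27) and 1.85 (1.46 to 2.33). OAS1 was 0.258 times as high in control SW480 as in control SW620 (0.109 to 0.568) and 0.725 times as high between the knockdown libraries (0.412 to 1.23). The ratio for MX1 was 0.221 (0.078 to 0.554) and 0.169 (0.0333 to 0.535). DDX58 had ratios of 2.32 (1.60 to 3.44) and 3.88 (2.99 to 5.06), and IFIT3 of 0.899 (0.414 to 2.03) and 1.60 (0.958 to 2.65).

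To order the genes by level, CPM was divided by the length of the exons annotated in GENCODE 29. ISG15 was the highest in each library, at 42.5 to 95.7 CPM per kb, and IFI6 was the next, at 7.39 to 41.0 CPM per kb, each clear of the gene below it by its counting interval. DDX58 and IFIH1 followed, at 1.52 to 6.03 CPM per kb, with DDX58 ahead in SW480 and IFIH1 ahead in SW620. These neighbours overlapped in the controls and did not overlap in the knockdown libraries. The other 5 genes were at or below 3.04 CPM per kb. In SW480 MX1 was the lowest, at 0.0846 and 0.0525 CPM per kb, and overlapped with OAS1 in the control library, whereas in SW620 IFIT2 was, at 0.358 and 0.272 CPM per kb, and IFIT2 and MX1 overlapped there.

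The genes upstream of the response were examined next. Of 21 interferon genes, 13 had no count in any library and 0 passed the filter for testing. The highest was IFNE, with 3, 8, 0 and 4 counts in control and knockdown SW480 and control and knockdown SW620. No interferon could therefore be compared at this depth. Of 9 receptors and their kinases, 0 passed the test in either direction, and their median log2 ratio was 0.01 in SW480 and -0.01 in SW620. The largest values there belonged to JAK2 (log2 fold change 0.39, SE 0.32), JAK1 (-0.23, SE 0.12) and the interferon lambda receptor IFNLR1 (-0.22, SE 0.27).

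Of 7 transcription factors of the response, 0 passed the test. IRF9, a DNA-binding partner of STAT2, had 106 and 157 counts in control and SHMT2-knockdown SW480 and 38 and 63 in the SW620 libraries, or 11.0, 23.7, 6.97 and 4.68 CPM. Its log2 ratio was 1.08 in SW480 and -0.55 in SW620. STAT2 had 39.0 and 55.8 CPM in SW480 and 43.3 and 42.2 CPM in SW620. IRF1 had 17.3, 19.2, 20.2 and 24.3 CPM. Over both lines the log2 fold changes of IRF9, STAT2 and IRF1 were 0.47 (SE 0.26), 0.24 (SE 0.14) and 0.21 (SE 0.19), with adjusted p values of 0.611, 0.651 and 0.894 by edgeR.

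Of 20 other RNA sensors and signalling genes tested, 0 were higher and 1 was lower. SIKE1, a suppressor of the kinase IKKε downstream of the sensors, fell from 54.2 to 31.7 CPM in SW480 and from 50.4 to 31.0 CPM in SW620 (log2 fold change -0.74, SE 0.14, adjusted p = 7.11e-05 by edgeR). SIKE1 is on the study's own list of changed genes from these libraries, so this is not independent evidence. RNF135 and TRIM25, which ubiquitinate proteins of RIG-I signalling, had log2 fold changes of 0.40 (SE 0.40) and -0.33 (SE 0.12, adjusted p = 0.140 by edgeR). RNF135 had 86 and 77 counts in SW480 and 0 and 1 in SW620. Of 6 genes of cytosolic DNA sensing tested, 0 passed, with 0.41 (SE 0.24) for TMEM173, which encodes STING, -0.22 (SE 0.13) for RNASEH2A and 0.17 (SE 0.14) for SAMHD1.

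The other interferon-stimulated genes had a median ratio in SW480 that lay between those of the 9 genes and of all genes. Of 50 on the list, 35 were tested, with 1 higher and 0 lower over both lines. PARP9, a partner of the ubiquitin ligase DTX3L, rose from 16.97 to 35.1 CPM in SW480 and from 12.8 to 16.0 CPM in SW620 (log2 fold change 0.73, SE 0.19, adjusted p = 0.0145 by edgeR). PARP9 is also on the study's list of changed genes from these libraries. In SW480, 28 of the 35 (80%) were above the control, against 50.9% of all genes. At least 1.5-fold higher were 6 of the 35, against 5.57% of all genes. In SW620, 15 of the 35 (42.9%) were above the control, against 50% of all genes. At least 1.5-fold higher were 2 of the 35, close to the share of 5.53% over all genes. The median log2 ratio was 0.32 in SW480 and -0.05 in SW620. IFITM1, a membrane protein that blocks viral entry, had 20 and 39 counts in SW480 and 1 in each SW620 library. MX2 had 1 count in each SW480 library and 84 and 106 in SW620, and OAS2 had 2 and 0 in SW480 and 10 and 50 in SW620. For these 3 genes only 1 of the lines had counts enough for a ratio. In the comparison of lines, 27 of the 35 were lower in SW620, against 31.3% of all genes, and 3 were higher, against 32.3%.

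Of 16 genes of antigen presentation that interferon induces, 0 passed the test, with a median log2 ratio of 0.14 in SW480 and 0.05 in SW620. PSMB9, an immunoproteasome subunit, had 42 and 54 counts in SW480 and 1 and 12 in SW620 (log2 fold change 1.02, SE 0.44, adjusted p = 0.353 by edgeR). PSMB8, another subunit, had 4, 5, 30 and 93 counts. PSME1, a proteasome activator, had 75.6 and 118 CPM in SW480 and 60.9 and 62.4 CPM in SW620 (log2 fold change 0.36, SE 0.13, adjusted p = 0.188).

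Genes that derive from endogenous retroviruses or other elements, and germline genes that DNA methylation is known to silence, were examined last. DNA methylation was not measured in these libraries, so whether these genes report the lower UHRF1 level was not tested. Of 16 of the former, 6 could be tested, and of 29 germline genes 4 could, as most had few or no counts. Of these 10 genes, 0 passed. ERVK13-1 had 8.12 and 10.9 CPM in SW480 and 11.6 and 13.4 CPM in SW620, and HHLA3 had 10.5, 8.14, 1.65 and 1.49 CPM. ARC, which descends from a retrotransposon, had 134 and 74 counts in SW480 and 7 and 61 in SW620. Its ratio of knockdown to control was 0.800 (0.594 to 1.07) in SW480 and 3.53 (1.62 to 9.16) in SW620. SYCP3, a protein of meiotic chromosomes, had 23 and 17 counts in SW480 and 9 and 58 in SW620, and TUBA3D had 18, 8, 11 and 21. MAGEB2 had 1151 and 902 counts in SW480 and 28 and 79 in SW620 (log2 fold change 0.19, SE 0.16).

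**Figure D4:**
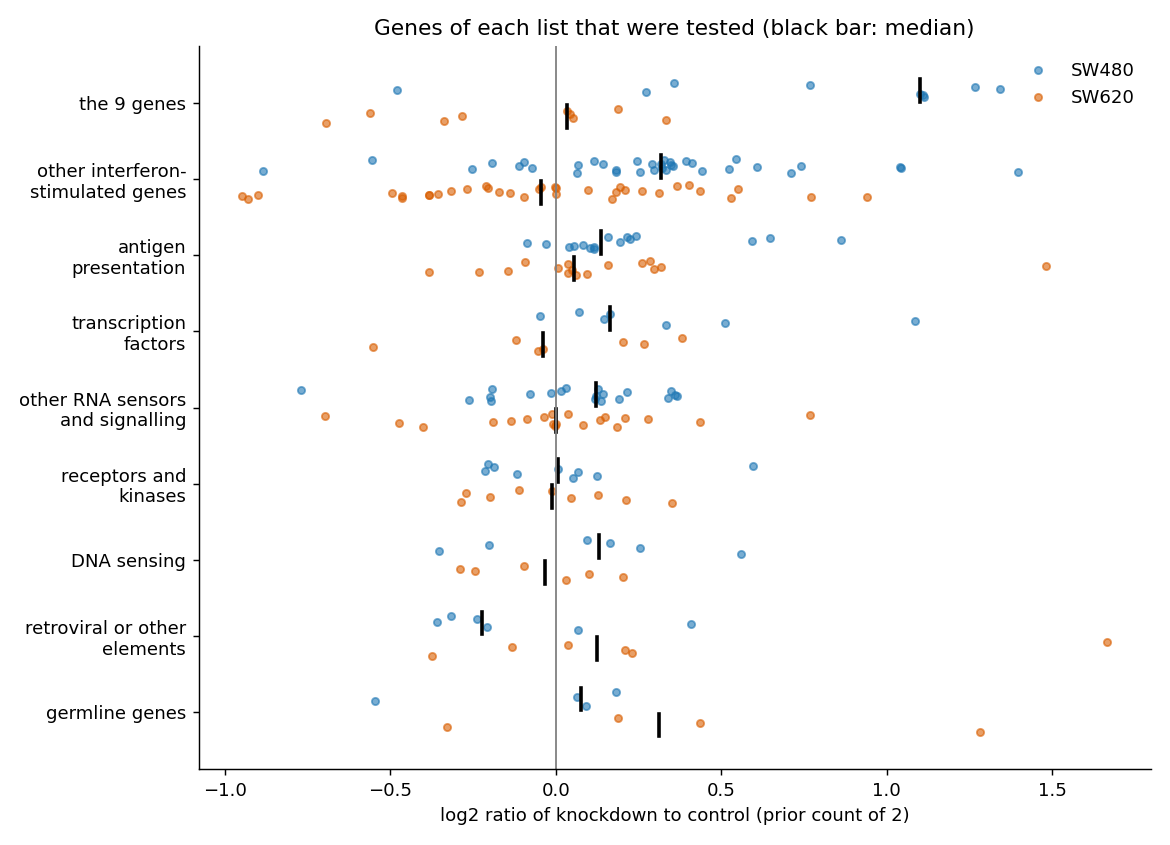
Log2 ratio of knockdown to control, with a prior count of 2, in SW480 (blue) and SW620 (orange) for each tested gene of the 9 genes and of 8 related lists, with a black bar at each median. The median of the 9 genes is 1.10 in SW480 and 0.03 in SW620, that of the other interferon-stimulated genes 0.32 and -0.05.

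Across the 4 libraries, the mean of the 9 genes on a centred log2 CPM scale was -0.09 in control SW480, 0.67 in SHMT2-knockdown SW480, -0.22 in control SW620 and -0.36 in SHMT2-knockdown SW620. The 5 other genes closest to this profile, by the root mean square difference over the 4 libraries, were HOXA5 (0.0390), EMILIN3 (0.0457), ZNF814 (0.0488), ZNF619 (0.0565) and PARP12 (0.0570). PARP12, itself an interferon-stimulated gene, had 20.0 and 30.6 CPM in SW480 and 16.9 and 15.3 CPM in SW620. HOXA5 had 5.62, 9.50, 4.95 and 4.83 CPM. A likeness over 4 libraries is a description, as many of the 14024 genes can share such a profile.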

How the data were processed

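Both cell lines, with and without SHMT2 knockdown, were sequenced from Illumina TruSeq libraries per the labels, while the paper's text names both RNA-seq and a microarray. The authors deposited 1 table of raw counts per gene symbol for the 4 libraries, without normalization. The submitters' processing notes name Bowtie 0.12.2 and hg18. How reads were counted, on which annotation and whether by strand, is not given in the sources used here.

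Counts were scaled by TMM. The 14024 genes that reached 10 counts in 2 or more libraries were tested with the two-sided quasi-likelihood test of edgeR 4.0.16 (R 4.3.3), with terms for cell line and treatment and Benjamini-Hochberg adjustment over all of them. DESeq2 1.42.0 was an alternative. The script was tested on simulated data. Within a line, the ratio of 2 counts was given with its exact 95% interval. A count of 0 allows up to 3 counts, or 0.223 to 0.55 CPM. Groups came from the labels, and the cell line pairs the libraries by design. After the mean of each condition was taken away, the SW480 libraries correlated at 0.961 across genes, which are not independent replicates. This value shows only that the lines differed in like ways under both conditions, so it is no test of the pairing. P-values measure only the spread between these libraries.

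The 9 genes and the gene lists were chosen with earlier results of these data known. Named in each list were the genes past an adjusted p of 0.05 and up to 3 with the largest log2 fold change among those with at least 50 counts in all; 1 gene that this rule names is not reported here. Named too were SHMT2, UHRF1 and the 5 genes most like the 9. LIPA, IFNE, PTPRC and the epithelial markers were named after their values had been seen. Alternatives were a model without the other factor, no filter, a filter of 50 counts, size factors of DESeq2, its Wald test, thinning to the smallest total, and leaving out a line or a treatment.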

Additional observations from a re-analysis of the deposited data

Results flagged for a closer look

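The ratio of knockdown to control had opposite signs in SW480 and SW620 for 10 of the genes named as members or from the related gene lists. This leaves aside the 5 genes named for their likeness and the cell type markers. Opposite signs were common, at 45.6% of all 14024 genes tested, so the count is not a trait of the named genes. The difference between the lines was not tested for any of them, as each line has 1 library per condition. The differences below are the log2 ratio in SW480 minus that in SW620, with a prior count of 2.

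Of the 9 genes, 3 had opposite signs, a smaller share than the 45.6% of all genes. The difference was 1.83 for IFI6 (1.27 and -0.56), 1.81 for IFIT1 (1.11 and -0.69) and 1.45 for IFIT2 (1.11 and -0.34). Of all genes tested, 2.78% were at least 1.5-fold higher in SW480 and below the control in SW620. Among the 781 genes at least 1.5-fold higher in SW480, 390 were below the control in SW620. Of the 6 members past that limit, 3 were, a like share. Among transcription factors and kinases, the difference was 1.64 for IRF9 (1.08 and -0.55), 0.61 for JAK2 (0.60 and -0.01) and 0.55 for STAT2 (0.51 and -0.04). The values of JAK2 and STAT2 in SW620 were close to 0. For IFITM1 it was 1.86, with 1 count in each SW620 library. For MX2 it was 1.13, with 1 count in each SW480 library, and for OAS2 it was -1.83, with 2 and 0 counts in SW480. ARC moved the other way, with a difference of -1.98 (-0.32 and 1.67) and 7 counts in control SW620.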

How the results depend on the processing

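For knockdown against control, 0 of the genes tested among the 9 passed an adjusted p of 0.05 under the alternatives run, with 5 of 9 tested under the filter of 50 counts and an adjusted p from DESeq2's Wald test for ISG15 alone, while the number of all genes that passed went from 233 to 0 without the cell line in the model, 183 without a filter, 69 with a filter of 50 counts, 217 with DESeq2's size factors, 26 by DESeq2's Wald test and 63 after thinning. At an unadjusted p of 0.05 or less there were 0 to 3 of the 9. The share of all genes at that unadjusted limit was counted in the main edgeR fit alone, with 4.15% higher in the knockdown. The median log2 fold change over the 9 genes was 0.0344 without SW480 and 1.1 without SW620, so it rests on SW480. For SW620 against SW480, the 8 genes called became 5 with a filter of 50 counts, which tests fewer genes, and 3 by DESeq2's Wald test. Of all genes, 8926 of 14024 were called in the main fit, 7119 of 11473 with that filter and 5506 of 14024 by DESeq2. By DESeq2's Wald test, IFIT1 (adjusted p = 0.119), IFIT2 (0.0644), MX1 (0.0975), OAS1 (0.356) and IFIH1 (0.0935) were lost, and the cause was not tested. Among the 9, the number of genes at least 1.5-fold higher stayed 6 in SW480 and 0 in SW620 under the scalings tried, which include thinning. The share of all genes past that limit was counted in the main scaling alone, at 5.57% in SW480 and 5.53% in SW620. The median in SW480 was 0.768 over the 5 genes with at least 50 counts in each line. Depth limits MX1, OAS1, IFIT2 and IFIT3 most, with 3 to 56 counts per library.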
